A study of Mus musculus with 8 samples.

Results

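Heat shock proteins and co-chaperones were examined in RNA sequencing of mouse ventricular heart tissue. The members were taken by name from the deposited expression table: the Hspa and Hsph genes (Hsp70 and Hsp110 proteins), the Hsp90 genes, the Hspb genes (small heat shock proteins), Hspd1 and Hspe1 (the mitochondrial chaperonin), the Dnaja, Dnajb and Dnajc genes (J proteins) and the Bag genes, without Hspg2. This gave 71 of the 13677 genes of the table: 14 Hsp70 or Hsp110 genes, 3 Hsp90 genes, 7 small heat shock protein genes, 2 chaperonin genes, 4 Dnaja, 9 Dnajb, 24 Dnajc and 6 Bag genes, and Hspbap1 and Hspbp1, which share the name but belong to no heat shock protein family. Families were assigned by name alone, so that Hspb11 is counted among the 7 small heat shock protein genes for its name. All 71 passed the filter on low values (a signal of at least 1 in at least 2 libraries), beside 13544 of the 13677 genes. Of 80 protein-coding genes whose names fit in the annotation used, 9 were not analysed here.

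The study set ventricles deficient in Vhl against wild-type ventricles in the Wt1-Cre mouse model, in which the promoter of the epicardial gene Wt1 drives Cre. The Vhl protein is the substrate receptor of the ubiquitin ligase that marks hypoxia-inducible factors for degradation. The libraries are labelled C (n = 3), KO (n = 2, numbered 1 and 3) and DKO (n = 3). The labels give C, KO and DKO without spelling them out, so the second change in DKO, the deleted exons, the ages of the mice and the share of cells in which Cre acted are not known here, and all groups come from tissue that received no treatment. A KO library numbered 2 was not analysed here. Whether libraries of a group come from separate mice is not labelled; p-values therefore describe the spread among libraries, part of which may be technical. Vhl itself had a signal of 8.97, 7.504 and 7.26 in C, 8.33 and 8.96 in KO and 11.2, 10.9 and 8.61 in DKO, and its level differed in no comparison (limma adjusted p = 0.708 for KO versus C and 0.589 for DKO versus C), so the targeted gene's total signal did not separate the labelled groups.

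Heat shock proteins are molecular chaperones: they bind unfolded stretches of other proteins, keep them from clumping and help them fold or be destroyed. Hsp70 proteins work in an ATP-driven cycle in which J proteins deliver the client and start ATP hydrolysis, while Hsp110 and BAG proteins act as nucleotide exchange factors that release it; Hsp90 takes over clients that need later steps of folding, and small heat shock proteins hold unfolded clients without ATP. Many of these genes are switched on by heat shock factor 1 when proteins unfold, and the heart keeps several small heat shock proteins at high levels beside its contractile filaments.

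Values are the deposited signal, reads over an effective library size on the scale of CPM, and are listed by library number (C 1, C 2, C 3; KO 1, KO 3; DKO 1, DKO 2, DKO 3). Libraries held 15028176 to 21202385 reads. The deposited scaling factors were 0.925 to 0.964 in C, 1.36 and 1.37 in KO and 0.705 to 1.06 in DKO. The library DKO 2 stood apart: 41.6% of its reads came from the mitochondrial genome and 51.5% from its 10 most abundant genes, against 22.0% to 38.1% for the top 10 in the other libraries. It was the lowest library for 34 of the 71 members, and for 19% of all genes tested. All 10 markers of ventricular cardiomyocytes were in the table.

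Promoter sequences are shown for selected members whose window holds a heat shock element or an endoplasmic reticulum stress element, the short elements through which heat shock factors and the unfolded protein response act. RefSeq windows on GRCm38.p6, from 250 bases before to 50 bases after an annotated start, were given for 58 of the 71 members in 75 windows. Positions are counted from 0 at the annotated start, negative before it. Hspa1a and Hspa1b lie in the same orientation on chromosome 17, and 247 of the 250 bases before their starts are identical (98.8%). The capitals mark the heat shock element in its looser form, GAANNTTC or TTCNNGAA, at -104 to -97 in both.
Hspa1a (chr17:34972157-34972406, minus strand): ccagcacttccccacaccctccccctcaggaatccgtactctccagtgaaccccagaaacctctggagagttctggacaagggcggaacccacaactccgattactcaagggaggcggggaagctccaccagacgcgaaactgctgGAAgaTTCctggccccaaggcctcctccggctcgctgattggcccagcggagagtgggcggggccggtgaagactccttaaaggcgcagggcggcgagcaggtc
Hspa1b (chr17:34959239-34959488, minus strand): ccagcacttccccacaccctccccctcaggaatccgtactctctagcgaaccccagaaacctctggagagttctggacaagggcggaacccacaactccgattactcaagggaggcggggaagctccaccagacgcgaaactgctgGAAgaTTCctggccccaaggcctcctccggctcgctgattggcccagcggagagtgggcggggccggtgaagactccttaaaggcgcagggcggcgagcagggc
Hspe1 shares its window with the divergent gene Hspd1, whose start lies 111 bases away; the capitals mark overlapping copies of the strict form, GAANNTTCNNGAA or TTCNNGAANNTTC, here at -89 to -72 of Hspe1. Hsph1 holds the strict form after its start, at 36 to 48.
Hspe1 (chr1:55088053-55088082, plus strand): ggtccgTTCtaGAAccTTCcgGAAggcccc
Hsph1 (chr5:149636287-149636308, minus strand): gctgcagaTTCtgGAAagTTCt
Dnajb4 and Hspb8, which rose in KO, hold the looser form, at -14 to -7 and at 2 to 9. For Dnajb4 the match is at an annotated start inside the gene. Its window at the outer end of the gene (chr3:152210034-152210333) holds neither form. Of the other members that rose in KO, Hspa2, Hspa1l and Hspa4 hold neither form in their windows, and no window was given for Hsp90aa1.
Dnajb4 (chr3:152193841-152193870, minus strand): ttcgttcgctgTTCtaGAAagtacagagac
Hspb8 (chr5:116422844-116422873, minus strand): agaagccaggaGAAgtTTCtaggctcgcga
Hspa5, Hsp90b1 and Dnajc3, chaperones of the endoplasmic reticulum (ER), hold the ER stress element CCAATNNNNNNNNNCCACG. The printed copies lie at -65 to -47, at -212 to -194 and at -105 to -87. Hsp90b1 holds a further copy at -107 to -89, which is not printed.
Hspa5 (chr2:34772020-34772048, plus strand): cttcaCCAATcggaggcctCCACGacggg
Hsp90b1 (chr10:86705633-86705661, minus strand): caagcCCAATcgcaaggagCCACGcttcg
Dnajc3 (chr14:118937822-118937850, plus strand): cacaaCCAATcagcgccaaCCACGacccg
Searched on both strands, the strict heat shock element was in 6 of 75 member windows (8.0%), those of Hspd1, Hspe1, Hsph1 and Dnajb6, and in 0.603% of 32851 windows of all genes. These 6 windows are not separate sites. Overlapping windows of Hsph1, of Dnajb6, and of Hspd1 with Hspe1 hold the same bases and count them more than once. The looser form, which every strict element contains, was in 18 of 75 (24.0%), against 15.1% of all windows. The ER stress element was in 3 of 75 (4.0%), against 0.119%. ACGTG or GCGTG, the core of the hypoxia response element, was in 77.3% of member windows and 43.8% of all windows, beside a median GC content of 63.7% and 52.7%; this motif was added after the values were seen. Of the members that rose in KO, Dnajb4, Hspa1l and Hspa4 had such a core and Hspa1a, Hspa1b, Hspa2 and Hspb8 had none. Hsp90aa1 had no window. Of those that fell, Bag1, Dnajc15, Dnajc4 and Hspe1 had one. Hspb2, which also fell, was not among the 45 members found with a core. A match says that these letters are present, not that a factor binds them.

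In C, the highest levels per kilobase of transcript belonged to the small heat shock proteins and the constitutive chaperones of the cytosol. Hspb7, a small heat shock protein found mainly in heart, led with a mean signal of 515 per kilobase, followed by Hspb1 with 451, Hspa8 (the constitutive Hsp70) with 412, Hsp90ab1 (the constitutive Hsp90) with 398 and Hspb6 with 304. Bag1, Hspb2, Hspb8 and Hspa9 also exceeded 100 per kilobase, so that 9 members did, while 37 of 71 were under 10. The stress-inducible Hspa1a and Hspa1b were among the 4 lowest members in C, with 1.1 and 0.881 per kilobase. In DKO they reached 4.74 and 5.28. All members together held 1.08% ± 0.0522 of the reads outside the mitochondrial genome in C (n = 3), 1.52% ± 0.0802 in KO (n = 2) and 0.923% ± 0.225 in DKO (n = 3). On the deposited scale, which carries the scaling factors above, their summed signal came to 8550 ± 408 (C), 9244 ± 457 (KO) and 7242 ± 1602 (DKO). Levels varied more in DKO than elsewhere: the median coefficient of variation over members came to 20.1% in DKO, against 8.06% in C and 7.67% in KO.

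KO was compared with C. The design text gives the study's contrast as Vhl-deficient against wild-type tissue without naming the labels it covers, and the level of Vhl did not separate KO from C. Of the 71 members, 8 rose and 5 fell (limma adjusted p under 0.05 over all genes), which is 18.3% of members beside 13.9% of all genes tested; by direction, 6.9% of all genes rose and 7.01% fell. The Hsp70 family held most of the members that rose, with 5 of 14, joined by Hsp90aa1, the J protein Dnajb4 and the small heat shock protein Hspb8. The members that fell were Hspb2, Hspe1, Bag1, Dnajc15 and Dnajc4. The median log2 fold change was 0.07 over members and 0.01 over all genes. Both KO libraries were above all C libraries for 27 members (38.0%, beside 27.5% of all genes) and below them for 18 (25.4%, beside 26.7%). Fold changes are on the log2(signal + 1) scale, given ± SE, and understate the change of genes with a low signal. In bulk tissue, fewer cells of a type and less RNA per cell cannot be told apart.

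Hspa2, an Hsp70 best known from male germ cells, measured 3.34, 3.59 and 2.26 in C, 9.94 and 10.2 in KO and 4.02, 3.44 and 2.85 in DKO. Both KO libraries lay above all C and DKO libraries, which overlapped each other. The rise in KO was 2.75-fold (log2 fold change 1.46 ± 0.21, limma adjusted p = 0.00153), and it passed the threshold under each of the 17 alternative settings. Hspa1l, an Hsp70 that shares a locus with Hspa1a and starts 547 bases from it on the other strand, measured 5.296, 6.298 and 4.42 in C, 11.9 and 14.3 in KO and 4.62, 3.16 and 7.0 in DKO. Again the KO libraries were above the rest, and C and DKO overlapped. It rose 2.23-fold (log2 fold change 1.16 ± 0.26, limma adjusted p = 0.0121).

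Hspa1a and Hspa1b encode the same stress-inducible Hsp70, the classical product of the heat shock response, which unstressed cells hold at low levels until proteins unfold. Hspa1a (chr17:34969190-34972156, chromosome 17, minus strand) measured 2.11, 4.25 and 3.43 in C, 7.696 and 8.68 in KO and 12.9, 9.67 and 19.6 in DKO. Hspa1b (chr17:34956436-34959238) measured 2.66, 2.92 and 1.82 in C, 6.59 and 7.298 in KO and 13.4, 12.9 and 18.1 in DKO. For both genes all C libraries were lowest, the KO libraries lay between and all DKO libraries were highest, with no overlap among the groups. In KO, Hspa1a rose 2.202-fold (log2 fold change 1.14 ± 0.28, limma adjusted p = 0.0194) and Hspa1b 2.31-fold (1.21 ± 0.21, limma adjusted p = 0.00386). Of the 50-base words of Hspa1b, 62.3% also occur in Hspa1a, so the split of reads between the copies is uncertain. Their summed signal does not depend on that split. It reached 4.78, 7.17 and 5.25 for the C libraries, 14.3 and 15.98 for KO and 26.4, 22.6 and 37.6 for DKO. Counts behind these values were small in C, with 34, 70 and 55 reads for Hspa1a and 43, 48 and 29 for Hspa1b.

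**Figure D1:**
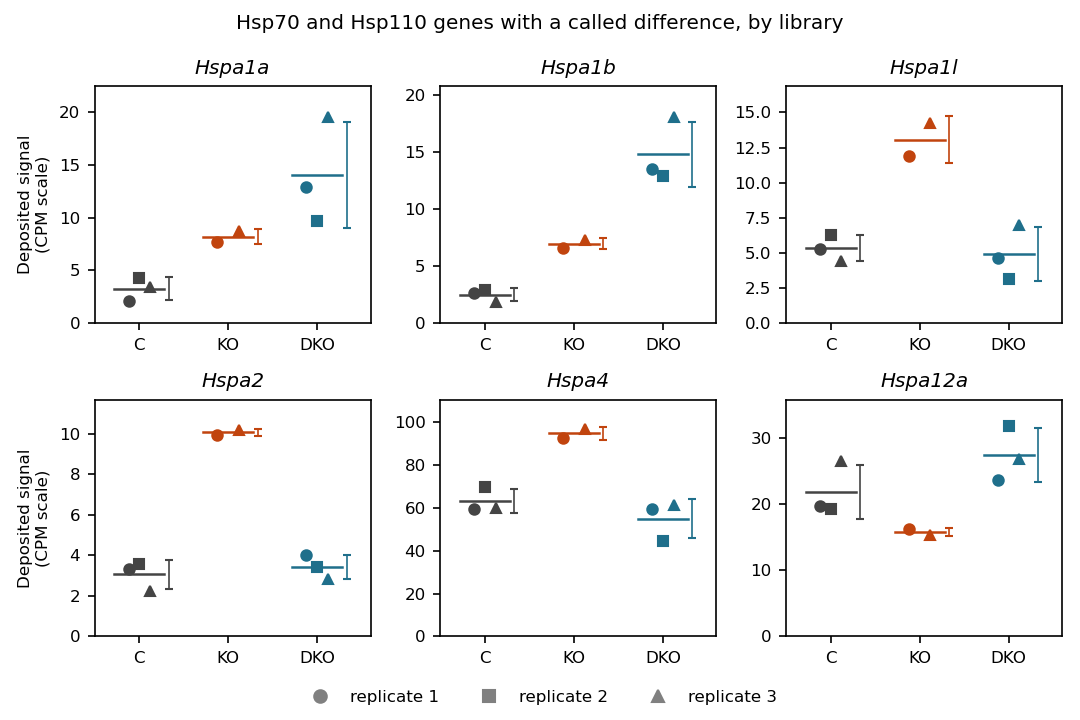
Deposited signal (linear axis from 0) of 6 Hsp70 and Hsp110 genes in each library, by group; points are libraries, horizontal lines group means and bars 1 SD (C and DKO n = 3, KO n = 2). Hspa1a and Hspa1b step up from C to KO to DKO, while Hspa1l, Hspa2 and Hspa4 are high in KO, and Hspa12a is lowest in KO.

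Hspa4, an Hsp110 protein that releases clients from Hsp70, measured 59.7, 69.6 and 60.02 in C, 92.5 and 96.9 in KO and 59.5, 44.5 and 61.1 in DKO. Both KO libraries were above every C and DKO library. The change was 1.497-fold (log2 fold change 0.58 ± 0.17, limma adjusted p = 0.0445). The call was lost with median centring (limma adjusted p = 0.0824), with limma-voom (adjusted p = 0.0520) and with the library number as a block (adjusted p = 0.0924). Its relatives did not pass the test: Hsph1 (Hsp105) measured 25.3, 22.3 and 27.6 in C and 24.5 and 29.7 in KO (limma adjusted p = 0.776), and Hspa4l had a log2 fold change of 0.31 (limma adjusted p = 0.239). The abundant constitutive members gave smaller values with adjusted p above the threshold: the log2 fold change was -0.17 ± 0.25 for Hspa8, -0.03 ± 0.24 for Hspa5 (the Hsp70 of the ER, also known as BiP) and -0.17 ± 0.30 for Hspa9 (the Hsp70 of the mitochondrial matrix), with limma adjusted p from 0.692 to 0.949. For Hspa8, 51.4% of the 50-base words also occur in another annotated gene, mostly Gm15459, so its level is uncertain. Hspa12b, a distant Hsp70 relative of endothelium, measured 88.3, 77.2 and 90.5 in C and 47.9 and 60.6 in KO without passing (limma adjusted p = 0.0793); it passed without DKO 2 (adjusted p = 0.00781). The summed signal of 8 endothelial markers was also lower in both KO libraries, at 1454 and 1226 against 1634 to 2344 in C, with 1 of the 8 called lower; its part in the level of Hspa12b was not tested.

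Hsp90aa1, the inducible cytosolic Hsp90, measured 90.6, 82.2 and 79.4 in C, 138 and 114 in KO and 69.7, 67.9 and 66.00 in DKO. The groups were ordered without overlap, DKO lowest, then C, then KO. In KO it was 1.49-fold higher than in C (log2 fold change 0.58 ± 0.15, limma adjusted p = 0.0285). Of its 50-base words, 58.5% also occur in another annotated gene, mostly the pseudogene Gm12346, so its level is uncertain. Hsp90ab1, 398 per kilobase in C, measured 988, 1074 and 943 in C, 824 and 907 in KO and 848, 597 and 907 in DKO, and both KO libraries were below all C libraries, but the difference did not pass (log2 fold change -0.21 ± 0.24, limma adjusted p = 0.596). Hsp90b1, the Hsp90 of the ER, had a log2 fold change of -0.22 ± 0.22 (limma adjusted p = 0.546).

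Among the small heat shock proteins, 1 of 7 rose and 1 fell in KO versus C, beside 6.9% and 7.01% of all genes tested. Hspb8, which works with Bag3 to pass damaged muscle proteins to autophagy, measured 197, 239 and 228 in C, 405 and 426 in KO and 227, 139.7 and 289 in DKO. Both KO libraries exceeded all others, and C and DKO overlapped. It rose 1.88-fold (log2 fold change 0.91 ± 0.26, limma adjusted p = 0.0364). The call was lost with median centring (limma adjusted p = 0.0574) and with the library number as a block (adjusted p = 0.0720). Hspb7 measured 1283, 1604 and 1392 in C, 2063 and 2109 in KO and 915, 687 and 1732 in DKO. The KO libraries were again highest, yet the difference of 0.55 ± 0.34 did not pass (limma adjusted p = 0.312). The spread in DKO, from 687 to 1732, enters the shared variance. With the C and KO libraries alone, where 26.6% of all genes were called, Hspb7 passed (limma adjusted p = 0.0223). It also passed with quantile normalisation (limma adjusted p = 0.0147). Hspb7 alone held 16.7% of member reads in C and 22.6% in KO. Hspb6, a small heat shock protein of muscle, measured 546, 674 and 587 in C, 787 and 814 in KO and 608, 372 and 681 in DKO, with both KO libraries above the others and no call (log2 fold change 0.41 ± 0.26, limma adjusted p = 0.316). Hspb6 passed in the same 2 settings (limma adjusted p = 0.0454 and 0.0137).

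Hspb2, a muscle small heat shock protein that binds the myotonic dystrophy kinase, went the other way. It measured 113, 105 and 105 in C, 59.9 and 54.03 in KO and 105, 73.9 and 106 in DKO. Both KO libraries lay below all others, and C and DKO overlapped. It fell 1.87-fold in KO (log2 fold change -0.91 ± 0.18, limma adjusted p = 0.00781). Hspb2 and the gene of alpha B-crystallin, Cryab, start 1029 bases apart on opposite strands, and their annotated spans overlap by 1030 bases. The strand setting of the counting is not stated, so reads of the overlap cannot be told apart. Cryab measured 1543, 1574 and 1483 in C, 1233 and 1052 in KO and 1369, 832 and 1494 in DKO and was not called (log2 fold change -0.43 ± 0.28, limma adjusted p = 0.339). Hspb3, which forms a complex with Hspb2, measured 7.93, 9.31 and 8.74 in C and 6.44 and 5.63 in KO, lower in both KO libraries without passing (limma adjusted p = 0.246). Hspb1, the ubiquitous heat-inducible member, was nearly level at 432, 432 and 394 in C and 446 and 441 in KO (limma adjusted p = 0.823); 51.7% of its 50-base words are shared with the pseudogene Hsp25-ps1.

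**Figure D2:**
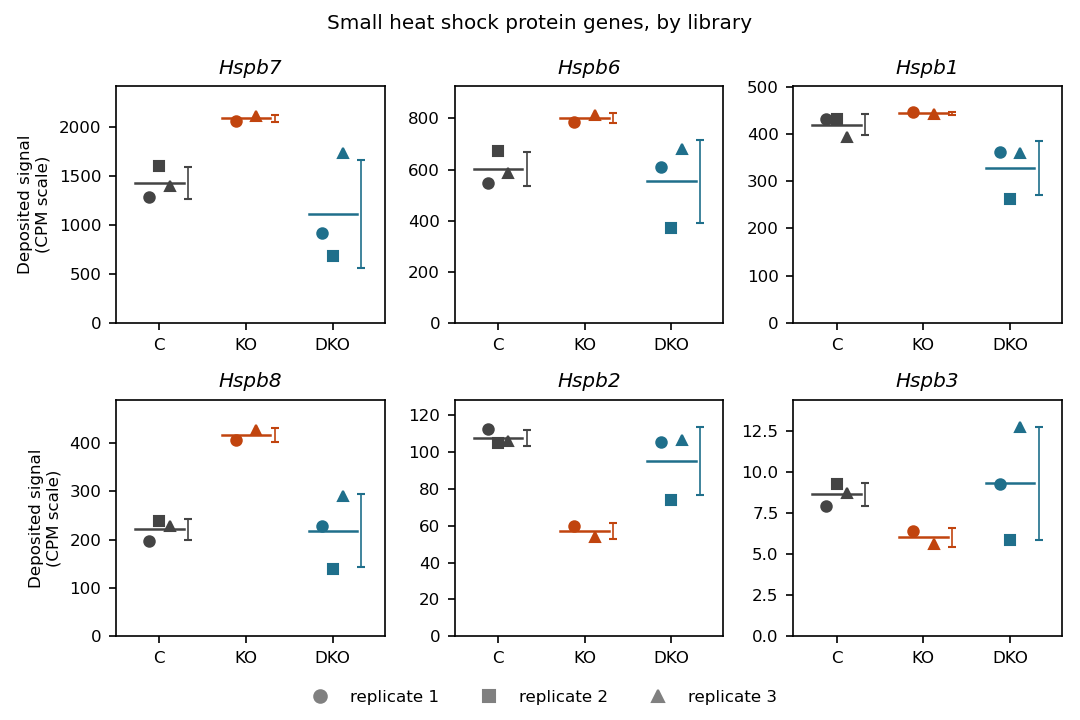
Deposited signal (linear axis from 0) of 6 small heat shock protein genes in each library; points are libraries, lines group means and bars 1 SD (C and DKO n = 3, KO n = 2). Hspb8, Hspb7 and Hspb6 are highest in KO, Hspb2 and Hspb3 have their group mean lowest in KO, and DKO 2 is the lowest DKO library for all 6.

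Of the J proteins, which choose the clients and sites of Hsp70, 1 of 9 Dnajb genes rose and 2 of 24 Dnajc genes fell in KO versus C. Over all genes tested, 6.9% rose and 7.01% fell. Dnajb4, a cytosolic J protein of muscle, measured 37.99, 41.3 and 35.5 in C, 68.8 and 77.5 in KO and 22.7, 18.2 and 32.8 in DKO. The groups did not overlap, with DKO lowest and KO highest. It rose 1.89-fold in KO (log2 fold change 0.92 ± 0.21, limma adjusted p = 0.0152). Dnajb1, the main heat-inducible J protein, measured 10.01, 10.3 and 9.298 in C and 12.9 and 17.3 in KO, and the higher level in KO did not pass (log2 fold change 0.55 ± 0.22, limma adjusted p = 0.121). It passed with the C and KO libraries alone (limma adjusted p = 0.0261), where 26.6% of all genes were called. None of the 4 Dnaja genes was called by limma, edgeR or limma-voom, and 0 had an unadjusted p under 0.05, beside 29.1% of all genes tested.

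The J proteins that fell are Dnajc15 and Dnajc4. Dnajc15, which sits in the inner mitochondrial membrane and restrains respiratory complex I, measured 81.8, 74.8 and 77.6 in C, 45.7 and 41.8 in KO and 70.5, 46.1 and 70.1 in DKO. Both KO libraries were below all others, DKO 2 coming next. It fell 1.77-fold (log2 fold change -0.82 ± 0.19, limma adjusted p = 0.0156). Dnajc4 measured 30.9, 36.5 and 32.8 in C, 20.1 and 21.6 in KO and 30.8, 24.9 and 30.4 in DKO, with both KO libraries again lowest (log2 fold change -0.65 ± 0.16, limma adjusted p = 0.0189). Dnajc19, a part of the motor that pulls proteins into the mitochondrion, measured 32.4, 32.4 and 31.5 in C and 26.6 and 23.3 in KO and did not pass (limma adjusted p = 0.237).

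Hspe1, the small lid protein of the mitochondrial chaperonin, measured 94.4, 96.7 and 88.8 in C, 67.6 and 48.5 in KO and 88.5, 62.5 and 84.7 in DKO. Both KO libraries were below all C libraries, but DKO 2 lay between them. It fell 1.62-fold (log2 fold change -0.69 ± 0.19, limma adjusted p = 0.0345). Its partner Hspd1, which forms the barrel and shares the promoter, measured 211, 216 and 193 in C, 181 and 179.6 in KO and 176, 105 and 199 in DKO and did not pass (log2 fold change -0.20 ± 0.24, limma adjusted p = 0.631). The annotated spans of the pair overlap by 112 bases on opposite strands. For Hspd1, 44.8% of the 50-base words also occur in another annotated gene, mostly Hspd1-ps3, so its level is uncertain.

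Bag1, a nucleotide exchange factor that links Hsp70 to the proteasome, measured 283, 292 and 261 in C, 177 and 165 in KO and 272, 197 and 269 in DKO. Both KO libraries were below all others. It fell 1.63-fold (log2 fold change -0.70 ± 0.19, limma adjusted p = 0.0276). Bag2, which restrains the ubiquitin ligase Stub1 (CHIP), measured 25.1, 30.05 and 28.9 in C, 47.1 and 39.6 in KO and 26.7, 19.5 and 31.2 in DKO. The KO libraries were above all others, and the test just missed the threshold (log2 fold change 0.61 ± 0.20, limma adjusted p = 0.0589; edgeR, adjusted p = 0.0491). Bag3, the partner of Hspb8 in autophagy of muscle proteins, measured 144, 168 and 151 in C, 191 and 241 in KO and 116, 80.6 and 177 in DKO (log2 fold change 0.47 ± 0.27, limma adjusted p = 0.264). With the C and KO libraries alone, where 26.6% of all genes were called, Bag3 passed (limma adjusted p = 0.0259).

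**Figure D3:**
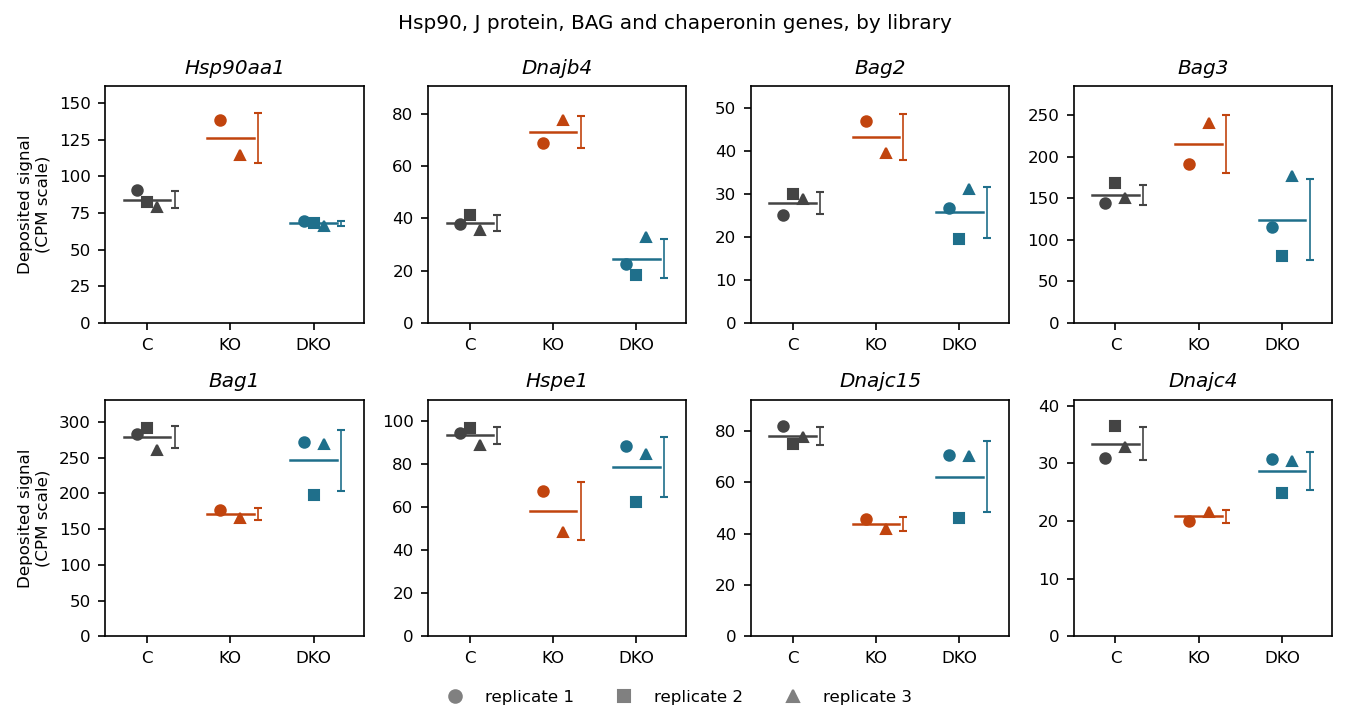
Deposited signal (linear axis from 0) of Hsp90aa1, Dnajb4, Bag2, Bag3, Bag1, Hspe1, Dnajc15 and Dnajc4 in each library; points are libraries, lines group means and bars 1 SD (C and DKO n = 3, KO n = 2). The genes of the upper row are highest in KO and those of the lower row have their group mean lowest in KO.

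With 2 KO libraries, most calls in KO versus C were lost in at least 1 fit that left out a KO or C library. Hspa2 alone kept its call in all leave-one-out fits. Without KO 3, only Hspa2 of the 13 members passed, and the other 12 had limma adjusted p from 0.0553 to 0.319. Without KO 1, 4 of the 13 passed (adjusted p of the lost calls 0.0543 to 0.217). The number passing was 5 without C 1 (lost calls 0.0531 to 0.144), 5 without C 3 (0.0535 to 0.138) and 7 without C 2 (0.0760 to 0.107). These fits also called fewer of all genes: 449 without KO 3 against 1883 in the full set. The direction of each of the 13 members was the same in all of them. Removing the trend of transcript length and GC content ended the calls of Bag1, Dnajc4, Hspa4, Hspb2 and Hspe1 (adjusted p 0.0650 to 0.163). The transcripts of the 5 members that fell had a median length of 1074 bases, against 2885 for the 8 that rose and 3003 for all members, Dnajc15 with 6193 bases being the long one among the former.

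**Figure D4:**
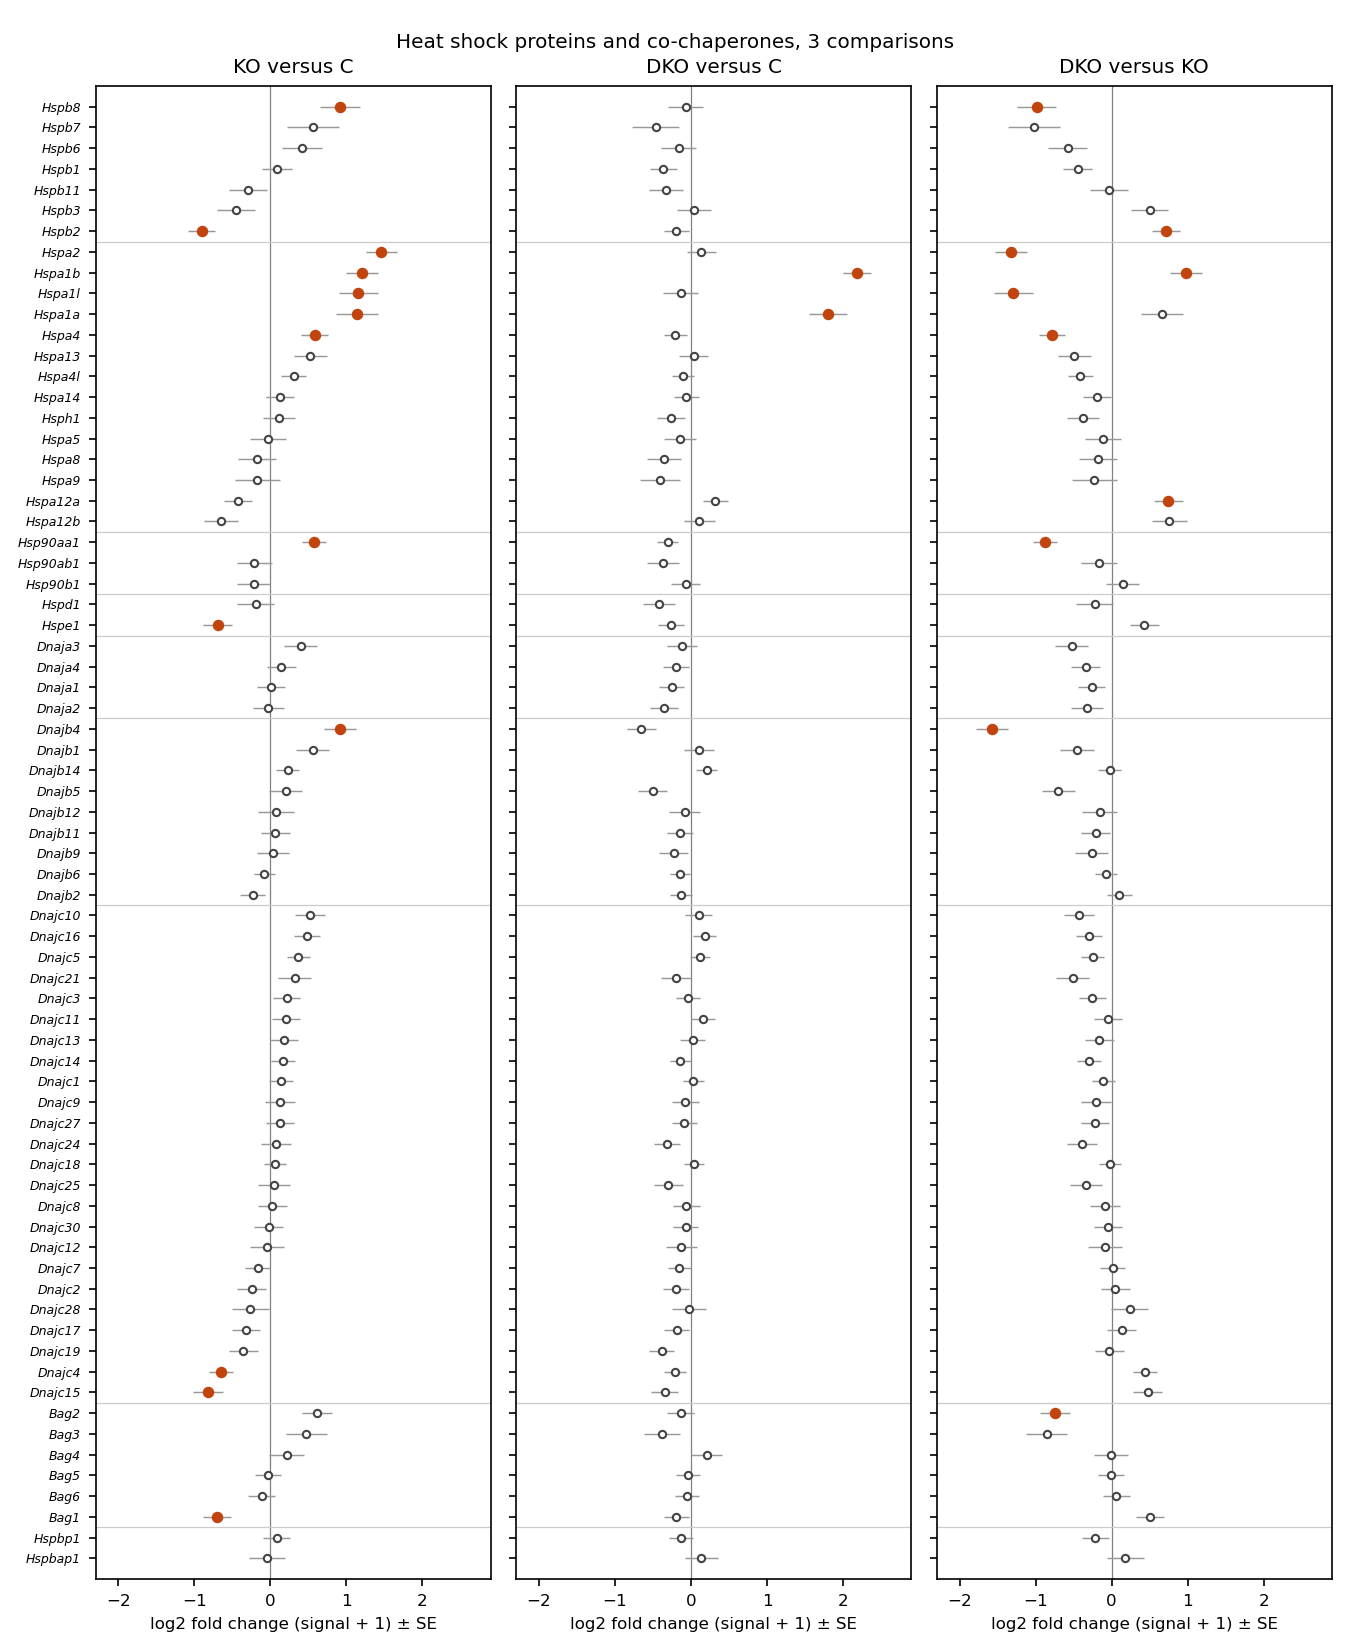
Log2 fold change of signal + 1 with its standard error for all 71 members, grouped by family and ordered by KO versus C, in KO versus C, DKO versus C and DKO versus KO; filled points passed an adjusted p of 0.05 (limma). The filled points are 13 in the first, 2 in the second and 10 in the third panel.

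DKO was compared with C in the same fit. Only the stress-inducible pair Hspa1a and Hspa1b was called, both higher: 2 of 71 members (2.82%), beside 0.155% of all genes tested, 0.0738% higher and 0.0812% lower. All DKO libraries were above all C libraries for 4 members (5.63%, beside 6.5% of all genes) and below them for 12 (16.9%, beside 7.25%). The latter count requires DKO 1 and DKO 3, as well as DKO 2, to lie below C. Its cause was not tested. For Hspa1b the mean ± SD was 2.47 ± 0.575 in C and 14.8 ± 2.84 in DKO (n = 3 each), a 4.55-fold rise (log2 fold change 2.19 ± 0.19, limma adjusted p = 0.000504), and for Hspa1a 3.26 ± 1.08 and 14.1 ± 5.04, 3.48-fold (1.80 ± 0.25, limma adjusted p = 0.0139). Every DKO library exceeded every C and KO library for both, DKO 2 included, and DKO 3 was the highest. Hspa1b passed under all 17 alternatives, its highest adjusted p being 0.00749. Hspa1a did not pass without C 1 (adjusted p = 0.0787), without C 3 (0.0597) or with limma-voom (0.0518).

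Genes usually induced together with Hspa1a and Hspa1b by heat shock factor 1 were read in DKO versus C as well. Of 12 heat-inducible members, Hspa1a, Hspa1b and 10 others, those 10 were not called by limma, edgeR or limma-voom. As limma called only 0.155% of all genes here, the lack of a call says little about them. An unadjusted p under 0.05 was reached by 3 of the 12, the called pair among them, beside 8.5% of all genes tested. A negative log2 fold change was seen in 9 of the 12, beside 53 of all 71 members. Dnajb1 measured 10.01, 10.3 and 9.298 in C and 14.1, 10.9 and 7.81 in DKO, and the groups overlapped (log2 fold change 0.10 ± 0.20, limma adjusted p = 0.908). Hsph1 measured 25.3, 22.3 and 27.6 in C and 25.3, 15.2 and 22.8 in DKO (-0.26 ± 0.19, limma adjusted p = 0.706). Hsp90aa1 was below C in all 3 DKO libraries without passing (-0.30 ± 0.14, limma adjusted p = 0.588). Hsf1, the heat shock factor itself, measured 30.1, 31.3 and 36.9 in C, 29.7 and 34.3 in KO and 29.2, 35.2 and 39.1 in DKO, and neither it nor Hsf2 or Hsf4 was called in any comparison.

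No member fell in DKO versus C by limma, edgeR or limma-voom; 6 of 71 members had an unadjusted p under 0.05 in limma, the called pair among them, beside 8.5% of all genes tested. Over all members 53 of 71 log2 fold changes were negative, with a median of -0.14 beside 0.01 for all genes. That shift came with DKO 2: the members' median difference from the C mean stood at -0.35 for DKO 2 against -0.06 for DKO 1 and -0.03 for DKO 3, and without DKO 2 the members' median in DKO versus C was -0.02. The largest drop among members was that of Dnajb4 (log2 fold change -0.66 ± 0.19, limma adjusted p = 0.452), with all 3 DKO libraries below all C libraries. Without DKO 3 it passed (log2 fold change -0.88, adjusted p = 0.0355). Dnajb5, a relative of Dnajb1, was also below C in all 3 DKO libraries, at 33.7, 41.2 and 47.2 against 55.1, 54.8 and 62.7 (-0.50 ± 0.19, limma adjusted p = 0.569).

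DKO versus KO tests how far both groups differ from each other, which is also the difference between their effects against C. Of 71 members 10 were called (14.1%), 3 higher and 7 lower in DKO, beside 11.8% of all genes tested, 6.08% higher and 5.73% lower. Dnajb4, Hspa2, Hspa1l, Hspb8, Hsp90aa1 and Hspa4, all higher in KO than in C, were lower in DKO than in KO, together with Bag2. Hspb2, lower in KO than in C, was higher in DKO than in KO. Because C and KO libraries serve in both comparisons, these directions are given side by side and not as independent results.

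Dnajb4 showed the largest difference, 2.98-fold lower in DKO than in KO (log2 fold change -1.57 ± 0.21, limma adjusted p = 0.00138). Hspa2 was 2.51-fold lower (-1.32 ± 0.21, limma adjusted p = 0.003200), with DKO libraries within the range of C or just above it. Hspa1l was 2.45-fold lower (-1.29 ± 0.26, limma adjusted p = 0.00886). For Hsp90aa1 the difference was 1.84-fold (-0.88 ± 0.15, limma adjusted p = 0.00485) and for Hspb8 1.98-fold (-0.98 ± 0.26, limma adjusted p = 0.0307). Hspb7 was 2.03-fold lower without passing (-1.02 ± 0.34, limma adjusted p = 0.0749), with DKO libraries from 687 to 1732.

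Hspa1a and Hspa1b, which rose in KO, had all DKO libraries above both KO libraries. For Hspa1b the difference passed (1.97-fold over KO; log2 fold change 0.98 ± 0.21, limma adjusted p = 0.0122). Hspa1a gave 0.66 ± 0.28 and did not pass (limma adjusted p = 0.143), with the split of reads between the copies uncertain as above. Hspa12a, a distant Hsp70 relative, measured 19.7, 19.3 and 26.5 in C, 16.2 and 15.4 in KO and 23.6, 31.8 and 26.9 in DKO. Its KO libraries were the lowest, C and DKO overlapped, and DKO exceeded KO 1.68-fold (0.75 ± 0.18, limma adjusted p = 0.0232). Hspb2 exceeded KO 1.64-fold (0.71 ± 0.18, limma adjusted p = 0.0271), with the lowest DKO value in DKO 2.

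Dnajb4 and Hspa2 passed in DKO versus KO under all 17 alternatives. Without KO 1 and without KO 3 each, 3 of the 10 members passed (lost calls 0.0577 to 0.202 and 0.0883 to 0.199). Both fits also called a smaller share of all genes than the full set. Hspb2 did not pass without DKO 1 (limma adjusted p = 0.0570), without DKO 3 (0.0539) or once the trend of length and GC was taken out (0.357). Bag2 and Hspb8 did not pass without C 3 (0.0521 to 0.0530), and Bag2, Hspb2 and Hspb8 did not pass without C 2 (0.0524 to 0.0527). With KO and DKO libraries alone, Bag2, Hspa12a, Hspa4, Hspb2 and Hspb8 did not pass (0.0601 to 0.0994), and with the library number as a block Bag2 (0.0751) and Hspb8 (0.0645) did not. Without DKO 2, where 14.7% of all genes were called against 11.8% in the full set, all 10 stayed and 6 more passed. The 6, higher in DKO, were Bag1, Dnajc15, Dnajc4, Hspe1, Hspb3 and Hspa12b (limma adjusted p 0.00677 to 0.0467). Of these, Bag1, Dnajc15, Dnajc4 and Hspe1 had fallen in KO versus C. Without DKO 3, where 11.9% of all genes were called, Hspb7, Bag3, Dnaja3, Dnajb5 and Hspa4l passed as lower in DKO. Bag3 had a log2 fold change of -1.14 (limma adjusted p = 0.00690) and Hspb7 one of -1.39 (limma adjusted p = 0.00722). Hspa12b passed as higher in that fit (limma adjusted p = 0.0331).

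**Figure D5:**
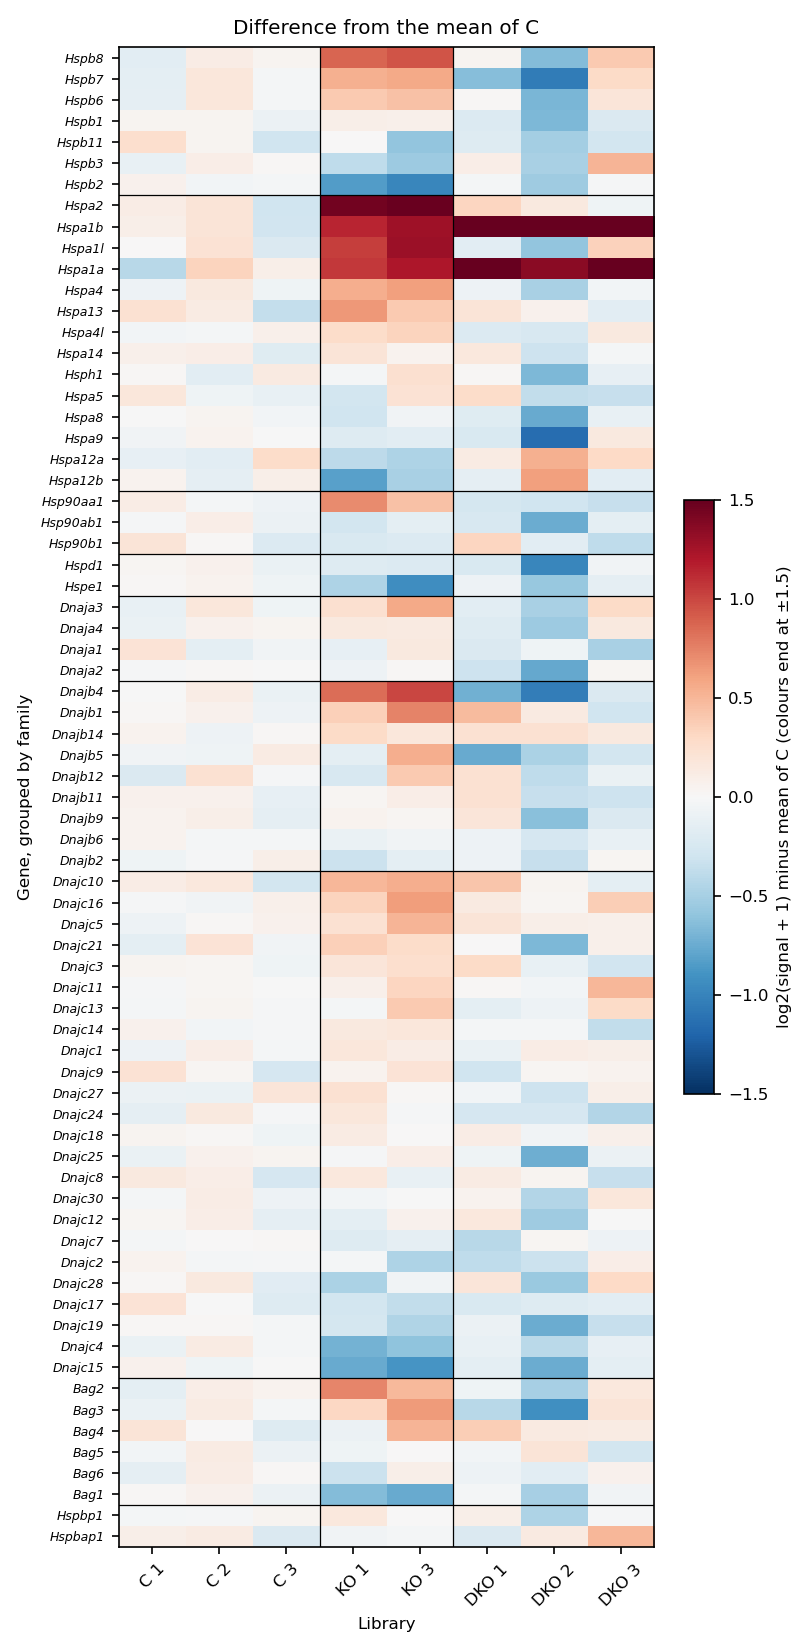
Difference of log2(signal + 1) from the mean of C for all 71 members (rows, by family) in each library (columns); red is above and blue below the mean of C, with colours ending at a difference of 1.5. Hspa1a and Hspa1b are red in all KO and DKO libraries, and DKO 2 is blue for 53 of the 71 members.

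Members were also grouped by the compartment they serve, and differences between compartments were not tested. Of 10 members of the ER, none was called in any comparison by limma, edgeR or limma-voom, with 2, 0 and 1 at an unadjusted p under 0.05 in KO versus C, DKO versus C and DKO versus KO, beside 29.1%, 8.5% and 28.9% of all genes tested. In KO versus C 8 of 10 had a positive log2 fold change, with a median of 0.11. Hspa5 measured 351, 299 and 290.2 in C, 258 and 363 in KO and 379, 241 and 245 in DKO, with the KO libraries on either side of C, and Dnajb9, an ER J protein induced by ER stress, 22.2, 22.7 and 19.4 in C, 22.1 and 21.8 in KO and 24.3, 13.4 and 18.2 in DKO. The 3 genes with the ER stress element printed above are among these 10. The 8 mitochondrial members had a median of -0.19 in KO versus C. Called lower were 2 of them (Hspe1 and Dnajc15), beside 7.01% of all genes tested, and 6 of 8 were negative. In DKO their median by library ran from -0.65 (DKO 2) through -0.11 (DKO 1) to 0.05 (DKO 3). Hspa9 measured 354, 381 and 366 in C, 320.3 and 329.99 in KO and 314, 166 and 408 in DKO, with DKO 2 the lowest of all libraries. The 12 heat-inducible members held 3 that rose (Hspa1a, Hspa1b and Hsp90aa1) and 1 that fell (Hspe1) in KO, beside 6.9% and 7.01% of all genes tested.

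Genes that work with these chaperones but carry other names were read from fixed lists, described by counts. In KO versus C, the shares over all genes tested were 6.9% higher, 7.01% lower and 29.1% at an unadjusted p under 0.05, against which the counts are to be read. Of 14 chaperonin CCT and prefoldin subunits, which fold actin and tubulin, 3 fell (Cct7, Pfdn5 and Pfdn6) and none rose by limma, edgeR or limma-voom, with 6 of 14 at an unadjusted p under 0.05 and a median of -0.29. Pfdn5 measured 161, 125 and 145 in C, 81.9 and 61.7 in KO and 143, 151 and 146 in DKO, with both KO libraries far below the rest (log2 fold change -1.0 ± 0.18, limma adjusted p = 0.004204). Of 31 tested cofactors of Hsp70 and Hsp90, 5 fell and none rose by limma, with 10 of 31 at an unadjusted p under 0.05; edgeR and limma-voom called 4 lower and none higher. Without DKO 2, where 21.9% of all genes were called, 6 of the CCT and prefoldin genes were lower, and 6 of the cofactors were lower and 3 higher. Among the 5, Stub1 (CHIP), the ubiquitin ligase that tags clients of Hsp70, measured 167, 174 and 169 in C, 108 and 99.7 in KO and 153, 139 and 165 in DKO (log2 fold change -0.71 ± 0.16, limma adjusted p = 0.0117). Sil1, the exchange factor of Hspa5, measured 19.1, 18.2 and 19.2 in C, 11.7 and 12.2 in KO and 22.1, 17.1 and 18.3 in DKO (-0.62 ± 0.16, limma adjusted p = 0.0235).

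Of 16 mitochondrial chaperones and proteases outside the families, 3 fell in KO (Clpp, Timm44 and Pam16) and none rose by limma, edgeR or limma-voom, with 5 of 16 at an unadjusted p under 0.05 and a median of -0.22; without DKO 2, 5 were lower. Clpp, a protease of the matrix, fell 1.98-fold (log2 fold change -0.99 ± 0.20, limma adjusted p = 0.00868). Of 21 ER chaperones and folding enzymes, 2 rose (Ero1l and Sel1l) and 1 fell (Sil1), and 4 were higher without DKO 2. Ero1l, an oxidase for disulfide bonds, measured 12.7, 11.9 and 11.96 in C, 24.2 and 21.9 in KO and 11.4, 12.98 and 10.1 in DKO, with KO above the rest (log2 fold change 0.87 ± 0.16, limma adjusted p = 0.00551). Of 20 further targets or partners of heat shock factor 1, Hmox1 rose (log2 fold change 1.33 ± 0.27, limma adjusted p = 0.00808) and Cdc37 fell (-0.54 ± 0.16, limma adjusted p = 0.0495); Cdc37, a partner of Hsp90 that brings kinases, was called by neither edgeR nor limma-voom. Without DKO 2, 3 of the 20 were higher and 2 lower. In DKO versus C none of these 5 lists held a called gene by limma, edgeR or limma-voom, while 1 to 5 of their genes had an unadjusted p under 0.05, except for CCT and prefoldin with 0, beside 8.5% of all genes tested.

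Other signals moved with the groups. Counts of called genes below are to be read against the shares over all genes tested. In KO versus C 6.9% were higher and 7.01% lower, and in DKO versus C 0.0738% and 0.0812%. The summed signal of the 10 cardiomyocyte markers lay at 65865 to 68952 in C, at 40489 and 44995 in KO, and at 55716, 39643 and 66151 in DKO 1, DKO 2 and DKO 3. That of 8 fibroblast markers lay at 469 to 725 in C, at 1252 and 1630 in KO and at 510 to 1142 in DKO, and 4 of the 8 rose in KO versus C. The sum of 5 atrial markers was 239 to 574 in C, 2507 and 1637 in KO and 220.3 to 432 in DKO, with 1 of the 5 called higher in KO. Yet 3 of the 5 had a negative log2 fold change in KO versus C, and the median was -0.22. Epicardial markers summed to 9.89 to 16.4 in C, 29.2 and 31.4 in KO and 13.2 to 22.2 in DKO, with 2 of 6 called higher in KO, and macrophage markers to 213 to 228 in C, 292 and 310.2 in KO and 223 to 296 in DKO, with 1 of 8 called. Sums for mural cells and for neurons and glia were also above C in both KO libraries, those for erythroid cells and adipocytes were below C, and that for lymphocytes overlapped. Most single neuron and glia genes went the other way: 4 of 5 had a negative log2 fold change in KO versus C. Their median was -0.78, with 1 called higher and 1 lower. Of 15 skeletal muscle genes, among them Ckm, which the heart also expresses, 12 fell and 1 rose in KO versus C. In DKO against C limma called 8 of them lower, edgeR 10 and limma-voom 0, and without DKO 2 limma called 2. Their sum ran from 3890 to 4920 in C and from 2348 to 4144 in DKO, with 1653 and 1917 in KO. Immediate early genes, which respond within minutes to stress and handling, summed to 442 to 527 in C, 793 and 810 in KO and 549 to 886 in DKO; 8 of 23 tested rose in KO versus C and 4 in DKO versus C, where limma-voom called 2. The part of all these signals in the levels of Hspa1a, Hspa1b and the other members was not tested.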

How the data were processed

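Poly(A) RNA of ventricular tissue was sequenced on an Illumina NovaSeq, per the labels' protocols. Named in the submitters' processing notes are GRCm38, cutadapt, RSEM 1.3.1 and limma, with no roles; annotation and strandedness of the counting are not stated. The authors deposited 1 table of a normalised signal in 8 columns: every value was whole reads plus 0.5 over an effective library size, as read from the values (100% whole within 0.001 reads). RSEM can split reads between near-identical copies.

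The test was limma 3.58.1 (R 4.3.3) on genes whose signal reached 1 in at least 2 libraries, on log2(signal + 1), with an intensity trend, in 1 model of the 3 groups. Benjamini-Hochberg adjustment covered all genes tested, with a threshold of 0.05. Alternatives were edgeR 4.0.16 quasi-likelihood and limma-voom on recovered reads, other pseudocounts, filters and scalings, and leaving out libraries. The scripts were tested on simulated data. Coordinates and lengths (longest transcript) come from GENCODE M21 on GRCm38, which matched 13666 of 13677 identifiers. Levels are mean ± SD. A count of 0 allows up to 3 reads, a signal of 0.104 to 0.283 by library, for counting error only.

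Members and lists were chosen with earlier results of these data known. Named members were all those past the threshold, up to 12 per direction, the 2 most abundant of each family and 20 well-known ones. Hspa12b, Hspa4l, Hspb3, Dnajb5, Dnajc19 and Dnaja3, the hypoxia motif and the grouping by compartment and heat induction were chosen after values were seen. Library numbers were not taken as pairs. Same-number correlations of deviations from the group means ran from -0.27 to 0.22, and with so few libraries per group they cannot decide whether samples were paired.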

Additional observations from a re-analysis of the deposited data

How the results depend on the processing

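Among 1836 refits of single members (36 members, 3 comparisons, 17 alternatives), none changed the sign of a called difference, 85 lost a call and 24 gained one. Pseudocount, filter, median centring and edgeR left each count of called members within 1.5 times the reported one. With only the libraries of the 2 groups compared, 15 members rose in KO versus C instead of 8, beside 26.6% of all genes called, and in DKO versus KO 1 was higher instead of 3 and 4 were lower instead of 7. Removing the length and GC trend left 2 lower in KO versus C instead of 5. Quantile normalisation gave 12 lower in DKO versus KO, and limma-voom 1 higher in DKO versus C instead of 2. The cause was not tested. Leaving out 1 library at a time gave 1 to 10 members higher and 0 to 6 lower in KO versus C, 1 to 2 higher and 0 to 1 lower in DKO versus C, and 0 to 9 higher and 3 to 12 lower in DKO versus KO, where a group left with 1 library was assumed to vary like the others. Whether the library number marks pairs is not known. Used as a replicate block, it left 6 higher and 5 lower in KO versus C, 2 and 0 in DKO versus C, and 3 and 6 in DKO versus KO. Depth limits the members with few reads, Hspa1a and Hspa1b in C among them, at 29 to 70 reads a library.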
